A study of Mus musculus with 20 samples.

Results

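Peritoneal macrophages, the resident phagocytes of the fluid-filled cavity around the abdominal organs, were compared with microglia, the resident macrophages of the brain tissue itself. The members are the 4 libraries titled PM and the 4 titled NMG, 8 of the 20 bulk RNA sequencing libraries of the series. Every one of the 8 was made from C57BL/6JRj mice. The PM libraries carry peritoneal cavity as their source and the NMG libraries carry brain. The labels give no age, sex, treatment, sorting gate or isolation method, so how the cells were freed from each tissue was not compared. Nothing in them states that replicates were taken from different mice, and p-values therefore measure only the spread between these libraries, which may be technical. The RNA is from bulk samples, in which fewer cells of a type and less RNA per cell cannot be told apart. The remaining 12 libraries hold macrophages of the dura with high or low MHC class II and of the choroid plexus. They entered the fit to share its estimate of the spread. They also took part in the filter that chose the genes tested and in the scaling of libraries.

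Both populations are long-lived tissue macrophages that use the same core programme of phagocytosis, complement and lysosomal digestion. Large peritoneal macrophages are known for the transcription factor Gata6, whose expression is driven by retinoic acid made in the omentum and which switches on a set of genes for the serous cavities. Microglia are known for the transcription factor Sall1, for dependence on CSF1 receptor signalling and for a gene set maintained by TGF-beta.

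Levels are in CPM, each count divided by the TMM-normalised library size and scaled up, and stand as mean ± SD over the n = 4 libraries of a population. A difference is the log2 fold change of PM minus NMG with an approximate standard error after ±. A gene was called when the adjusted p of edgeR's quasi-likelihood test was under 0.05 and the difference was at least 2-fold. A gene was termed similar when the 95% interval of its difference lay inside 2-fold in both directions. Where a population had no counts at all for a gene, the fold is a bound against a floor of 3 counts over its 4 libraries, and for a side holding 1 to 3 counts a ratio with a 95% counting interval is given. A value after "without NMG_3" comes from the same fit with that library left out, since NMG_3 carries transcripts of choroid plexus epithelium.

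Gene counts per library were 23532894–27948494 in PM and 15312617–17156227 in NMG, and the share of reads in no feature was 5.94–6.97% and 12–13.1%. The label of each population held in its markers. The microglial surface protein Tmem119 ranged over 4375–6125 CPM in NMG and 8.74–19.5 CPM in PM, and Gata6 over 144–189 CPM in PM and 0.125–3.21 CPM in NMG. The 16 listed genes of choroid plexus epithelium, the cell layer that secretes cerebrospinal fluid, summed to 72.4, 21834, 754 and 353 CPM in NMG_1, NMG_3, NMG_4 and NMG_5 and to 64.9–92.9 CPM in PM. NMG_5 had 4944 CPM of the 28 interferon response genes, against 1413–1832 CPM in the other NMG libraries. The fit was repeated with NMG_3 and with NMG_5 left out. Not every result below is printed with its value from those fits, so a missing value does not mean no change.

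Of 13960 genes tested, 2640 (18.9%) were called higher in PM and 3589 (25.7%) lower, so 44.6% were called either way. Without NMG_3 the calls were 2740 (19.4%) higher and 3358 (23.7%) lower of 14156 genes, and 5715 of the original calls remained. Of the 514 calls lost, 390 had been lower in PM and 124 higher, and no gene was called in the opposite direction. Differences past 16-fold were 622 in the higher and 1587 in the lower direction. Among genes at 10 CPM or more in the higher population, the directions were nearly even, with 1996 called higher and 1808 called lower. A further 4511 genes (32.3%) were similar. Counts of the gene lists below, also those of other cell types, are to be read beside these shares of all genes. The 4 PM libraries all lay above the 4 NMG libraries for 3948 genes (28.3%) and all below them for 4417 (31.6%). The median difference over all tested genes was -0.11, and -0.09 without NMG_3.

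**Figure D1:**
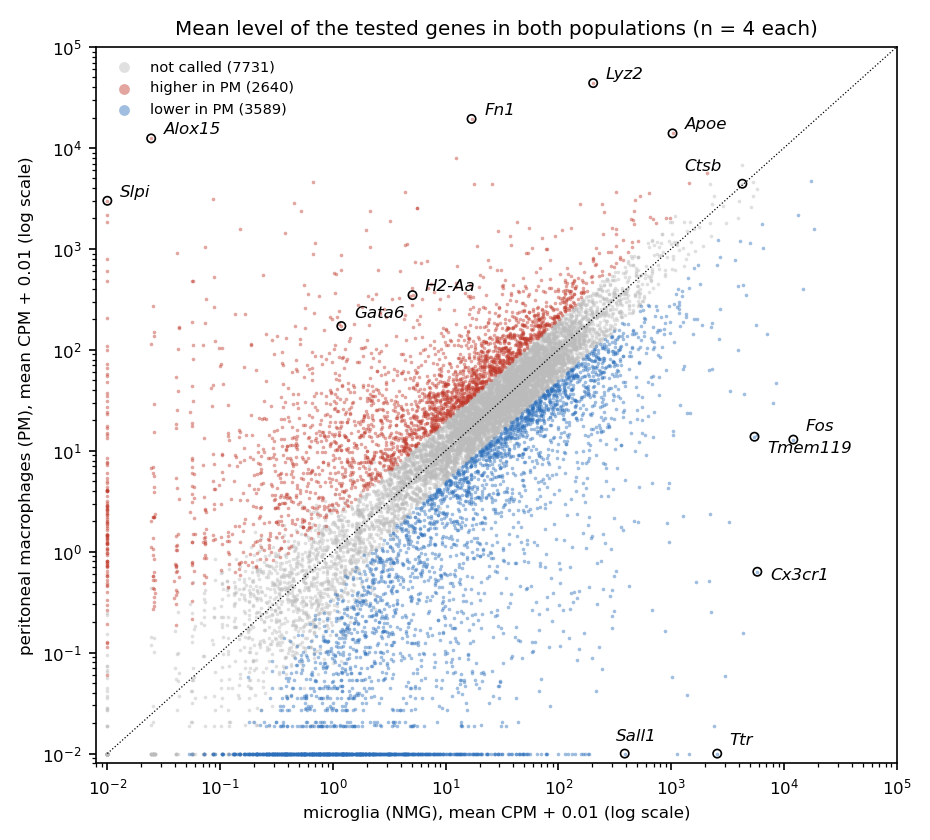
Mean level of each tested gene in microglia (x axis) and peritoneal macrophages (y axis), in CPM plus 0.01 on log scales, with genes called higher in PM in red, called lower in blue and not called in grey. Lyz2 and Fn1 stand near the top, Fos and Tmem119 far to the right, and Ctsb lies on the line of equal levels.

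The genes with the largest differences toward PM had few or no counts in microglia. Alox15, the 12/15-lipoxygenase that oxygenates arachidonic and linoleic acid, had 11264, 12434, 12290 and 13715 CPM in PM_1 to PM_4. In the 4 NMG libraries it had 1 count in all, in NMG_4. The ratio was 797877 (143203–31514498) and the fitted difference 19.17 ± 1.5 (adjusted p = 6.1e-09). Without NMG_4 no count was left in microglia, and the fold was at least 194794. Per kilobase of exon, Lyz2, Apoe and Alox15 were the 3 most abundant of the tested genes in PM, at 33355, 6518 and 5063 CPM per kb.

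Slpi, a secreted inhibitor of neutrophil serine proteases, was at 2562, 3463, 2954 and 3005 CPM in PM_1 to PM_4. It had no counts in any NMG library, so it was at least 64329-fold higher in PM (difference 19.03 ± 1.12, adjusted p = 1.56e-09). Serpinb2, plasminogen activator inhibitor 2, was at 1923, 1739, 2840 and 2067 CPM in the PM libraries. It too was without counts in microglia and at least 46313-fold higher (adjusted p = 2.89e-08). Padi4, an enzyme that converts arginine to citrulline in histones and other proteins, was at least 39632-fold higher, at 1848 ± 254 CPM. Prg4, the lubricating proteoglycan lubricin, was at 2718, 3895, 1795 and 4155 CPM in PM and 0.0627, 0.185, 0.0579 and 0 CPM in NMG_1, NMG_3, NMG_4 and NMG_5. For Prg4 the difference was 15.21 ± 1.34 (adjusted p = 2.89e-08). Without NMG_3, with 2 microglial counts left, its ratio was 74410.5 (20599–614434).

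The other genes among the 12 largest included receptors and enzymes. Timd4, the TIM-4 receptor for phosphatidylserine on dying cells, was at 1228, 868, 760.1 and 759.8 CPM in PM and had 2 counts in all NMG libraries, a ratio of 29435 (8148–243057). The ratio of Timd4 was 44324 (7955–1750712) without NMG_1, which held 1 of the 2 counts. Vsig4, a complement receptor of resident macrophages, was at 479 ± 42.9 CPM and at least 10363-fold higher. Retnla, a secreted resistin-like protein induced by interleukin-4, was at 582, 1200, 682 and 705 CPM and at least 17022-fold higher. Gbp2b, a guanylate-binding protein, varied among PM libraries, at 1214, 378, 250.2 and 582 CPM. Its bound of 13132-fold fell to 8421-fold without PM_1, where it was highest. Hal, the enzyme that starts histidine breakdown, Ifitm6 and Mst1r, the receptor of macrophage-stimulating protein, had 207 ± 39.6, 109 ± 21.1 and 99.7 ± 20.3 CPM and were each without a count in microglia.

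**Figure D2:**
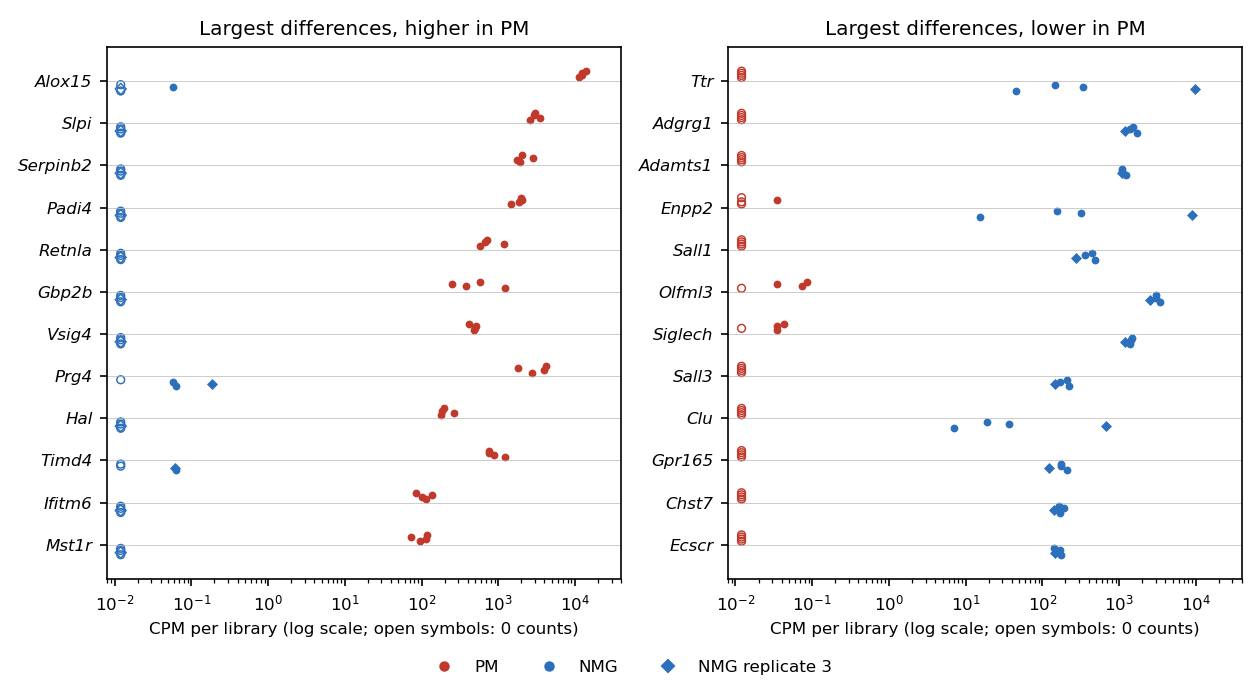
Level of the 12 genes with the largest difference in each direction, as CPM per library on a log scale, with PM in red, NMG in blue, NMG_3 as diamonds and libraries without a count as open symbols at the left edge. PM and NMG libraries are apart for every gene shown because only genes without overlap were chosen. Ttr, Enpp2 and Clu are highest in NMG_3.

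Gata6 itself was at 144, 183, 171 and 189 CPM in PM_1 to PM_4 and at 0.125, 3.21, 0.984 and 0.396 CPM in NMG_1, NMG_3, NMG_4 and NMG_5. All PM libraries were above all NMG libraries (7.17 ± 0.81, adjusted p = 5.82e-07), and the difference was 8.33 without NMG_3. Of the 26 genes listed for large peritoneal macrophages, 25 were called higher in PM and 1 lower, against 18.9% and 25.7% of all genes. Their median difference was 9.81, and 9.90 without NMG_3. The list summed to 46584–70402 CPM in PM and 643–782 CPM in NMG. Its members include Selp, the adhesion receptor P-selectin, at 1036 ± 178 CPM in PM and 0.0635 ± 0.0887 CPM in NMG (13.90 ± 0.86). Without NMG_1 the ratio for Selp was 49884 (8953–1970317). Icam2, an adhesion molecule often used to gate large peritoneal macrophages, was at 1082 ± 119.9 and 4.38 ± 0.383 CPM (7.95 ± 0.26). The labels do not say whether it was used here. Ltbp1, a binding protein of latent TGF-beta, was at 1523 ± 423 and 1.95 ± 1.40 CPM (9.59 ± 0.57). The 1 listed gene that was lower was Tgm2, transglutaminase 2, at 19.3 ± 11.9 CPM in PM and 125 ± 25.3 CPM in NMG (-2.69 ± 0.34).

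Small peritoneal macrophages are a minor, monocyte-derived population of the same cavity. Of the 12 genes listed for them, 9 were higher in PM and 2 lower, against 18.9% and 25.7% of all genes, and 1 was not called (median 4.68). They include Retnla, given above. Ccr2, the receptor by which monocytes follow CCL2, was at 123, 88.3, 30.4 and 144 CPM in the PM libraries and 2.16–3.70 CPM in NMG (5.20 ± 0.40). PM_3 was lowest among PM for Ccr2 and still above every NMG library. Cd209a, a DC-SIGN family lectin, was at 15.2 ± 4.11 CPM in PM and was detected in NMG_3 alone among microglia, at 0.432 CPM. Its difference of 7.05 ± 0.65 became a bound of 240-fold without that library. Csf2rb, the shared beta chain of the GM-CSF receptor, was not called at 0.81 ± 0.13.

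Of 32 transcription factors, 10 were higher in PM and 13 lower, against 18.9% and 25.7% of all genes. The other 9 were not called, 3 of them similar, and the median difference was -0.75. Without NMG_3, 11 were higher and 13 lower. Nfe2, a bZIP factor of blood cells, was at 173 ± 17.2 CPM in PM and 0.456 ± 0.189 CPM in NMG (8.57 ± 0.53). Bhlhe40, a basic helix-loop-helix repressor linked to macrophage self-renewal, was at 416 ± 59.5 and 12.4 ± 11 CPM (5.07 ± 0.55, and 5.87 without NMG_3). Runx3 was at 14.1 ± 5.16 and 0.108 ± 0.14 CPM (6.95 ± 0.44), with a ratio of 334 (92.4–2762) without NMG_1. On the microglial side, Sall1 was at 483, 272, 355 and 441 CPM in NMG_1, NMG_3, NMG_4 and NMG_5 and had no counts in any PM library, at least 13984-fold lower. Its relative Sall3 was at 187 ± 34.1 CPM in NMG and at least 6733-fold lower in PM. Mef2c, a factor of the microglial enhancer programme, was at 53.9 ± 4.20 and 489 ± 49.3 CPM (-3.18 ± 0.10). Mef2a was not called at -0.80 ± 0.13.

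Retinoic acid is made by aldehyde dehydrogenases, bound by nuclear receptors and broken down by CYP26 enzymes. Of 22 retinoid genes, 6 were higher in PM and 6 lower, against 18.9% and 25.7% of all genes. The median was -0.56 and turned to 0.03 without NMG_3, with 6 and 6 calls again. Aldh1a2, which makes retinoic acid, was at 55.1, 54.7, 37.0 and 73.9 CPM in PM and without counts in NMG, at least 1166-fold higher. Cyp26a1, which degrades it and is a classic retinoic acid target, was at 83.0, 47.4, 75.0 and 80.7 CPM and at least 1537-fold higher. Both enzymes were thus present in every PM library and in no NMG library. The receptors Rarb and Rara differed in the same direction. Rarb was at 48.9 ± 16.1 and 0.247 ± 0.413 CPM (7.59 ± 0.68), and its ratio without NMG_3 was 1155 (319–9537), with 38.4% of its exon length shared with other genes, so its counts are uncertain. Rara was at 78.0 ± 24.0 and 1.29 ± 1.52 CPM (5.91 ± 0.44, and 7.13 without NMG_3). The retinol uptake receptor Stra6 had no counts in PM and moved with NMG_3. Its bound was 569.8-fold with that library and 43-fold without it. Dhrs3 and Rxra were not called at 0.72 ± 0.11 and 0.56 ± 0.16.

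GATA factors bind motifs of the form AGATAA, and the promoters of the genes with the largest rises were read for it, each as the 250 bases before an annotated start. Of those 12 genes, 10 had a promoter sequence in RefSeq's table for GRCm38.p6, and only Serpinb2, in 1 of its 2 promoters, held the motif (AGATAA, or TTATCT on the other strand). The motif with 12 bases on either side, chr1:107511457-107511486 on the plus strand, is printed because Serpinb2 is the 1 carrier among the largest differences, and the capitals mark the motif.
Serpinb2 motif: cagccgctcagaAGATAAcgaggtaataca
Its first base is at position -41 from that start. Another annotated start lies 87 bases upstream, and in GENCODE M21 the motif is within the 5′ untranslated exon that opens there, at 107511423-107511478. The motif was in 1 or more promoters of 7.70% of 1986 genes called higher, 7.92% of 2691 called lower and 7.39% of 10616 tested, and of 2 of the 16 large peritoneal macrophage genes with a promoter. A match of letters is a description and not a bound site.

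The genes with the largest differences toward microglia had few or no counts in the PM libraries. Adgrg1, the adhesion receptor GPR56, was at 1725, 1182, 1370 and 1515 CPM in NMG_1, NMG_3, NMG_4 and NMG_5 and had no counts in PM, at least 52357-fold lower (adjusted p = 1.97e-12). Adamts1, a secreted metalloprotease, was at 1130 ± 79.7 CPM in NMG and at least 40919-fold lower in PM. Olfml3, a secreted olfactomedin-like protein, was at 3409, 2510, 3017 and 2999 CPM in NMG and 0–0.0857 CPM in PM (-15.82 ± 0.27, adjusted p = 1.27e-19). Siglech, a sialic acid-binding lectin of microglia, was at 1378 ± 114 CPM in NMG and had 3 counts in PM, a ratio of 49929 (17084–242117). Gpr165, Chst7, a sulfotransferase of proteoglycans, and Ecscr were at 171 ± 34.4, 167 ± 19.8 and 159 ± 15.6 CPM in NMG and without a count in PM. Beside Sall1 and Sall3, given above, the 3 remaining genes of the 12 largest were Ttr, Enpp2 and Clu, which were highest in NMG_3 and were called lower without it as well. The other NMG libraries also held transcripts of the choroid plexus epithelium list, at 72.4, 754 and 353 CPM in NMG_1, NMG_4 and NMG_5. Which cells the transcripts of these 3 genes came from was not tested. Ttr, the thyroid hormone carrier transthyretin, was at 45, 9725, 338 and 147 CPM in NMG_1, NMG_3, NMG_4 and NMG_5. Its bound of 93358-fold became 6575-fold without NMG_3. For Enpp2, the lysophosphatidic acid-producing enzyme autotaxin, the ratio fell from 260595 (46771–10293036) to 18147 (3256–716863) without NMG_3. PM_3 held the only Enpp2 count of PM, and without it the bound was 63693-fold. For Clu, the chaperone clusterin, the bound fell from 6673-fold to 777-fold without NMG_3.

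Of 28 microglia identity genes, 27 were lower in PM and 1 was higher, against 25.7% and 18.9% of all genes. The median was -8.79 (-8.90 without NMG_3). The list summed to 79432–104731 CPM in NMG and 4261–5785 CPM in PM, and no PM library came near the NMG range. Tmem119 was at 6125, 4375, 5607 and 5840 CPM in NMG and 8.74, 12.9, 14 and 19.5 CPM in PM (-8.64 ± 0.28, adjusted p = 8.85e-16, and -8.77 without NMG_3). Cx3cr1, the receptor of the neuronal chemokine fractalkine, was at 6694, 5050, 5833 and 5690 CPM in NMG and 0.255–1.03 CPM in PM (-13.20 ± 0.28). P2ry12, the ADP receptor by which microglial processes find injury, was at 5779 ± 728 and 14.3 ± 3.84 CPM (-8.65 ± 0.21). The 1 member that was higher in PM was Ltc4s, leukotriene C4 synthase, at 377 ± 46.7 and 169 ± 27.2 CPM (1.16 ± 0.16). Genes that mark microglia in disease models did not follow the identity genes. Of 18, 9 were higher in PM and 7 lower, against 18.9% and 25.7% of all genes (median 1.51, and 10 and 7 without NMG_3). Fabp5, Lgals3 and Lpl, which bind fatty acids, bind galactosides and hydrolyse triglycerides, were higher by 7.59 ± 0.29, 5.56 ± 0.26 and 4.14 ± 0.26. Igf1, insulin-like growth factor 1, was higher by 5.58 ± 0.34. Trem2, the lipid receptor that drives the disease-associated state, was lower, at 28.5 ± 15.3 CPM in PM and 1192 ± 106 CPM in NMG (-5.38 ± 0.28). Cd9, a tetraspanin, was the same to within its interval at 0.00 ± 0.13. Gpnmb was not called at 1.84 ± 0.99 but was called at 4.25 without NMG_3.

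TGF-beta is held in latent complexes, released by integrins, read by receptor kinases and passed on by SMAD proteins. Of 29 genes of this pathway, 18 were lower in PM and 3 higher, against 25.7% and 18.9% of all genes (median -1.5). Without NMG_3, 18 were lower and 4 higher. The receptor Tgfbr1 was at 2732, 1765, 2101 and 2598 CPM in NMG and 60.5, 75.2, 51.3 and 73.4 CPM in PM (-5.14 ± 0.18, adjusted p = 2.14e-15). The feedback inhibitors Smad7 and Skil were lower, at -7.86 ± 0.45 and -5.22 ± 0.27. In PM, Smad7 was at 0.104–2.48 CPM, and in NMG at 297–479.6 CPM. Ltbp4, a partner of latent TGF-beta, was at 0.811 ± 0.492 and 32.1 ± 9.87 CPM (-5.29 ± 0.50). The higher members were Ltbp1, given above, the ligand Tgfb2 and the co-receptor Tgfbr3. Tgfb2 was at 245, 497, 205 and 335 CPM in PM and 0.376, 20.2, 2.72 and 1.45 CPM in NMG, with NMG_3 the highest of the latter (5.69 ± 0.85, and 7.66 without NMG_3). For Tgfbr3 the libraries overlapped, and its difference of 1.67 ± 0.66 was not called without NMG_1 (1.39), NMG_4 (1.43), NMG_5 (1.34), PM_2 (1.59) or PM_4 (1.45), while it was 3.17 without NMG_3. It was also not called in edgeR's fit of the 8 libraries alone (1.65, adjusted p = 0.111). Nrros, which displays latent TGF-beta on microglia, and the signal transducer Smad3 were not called at -0.45 ± 0.09 and -0.39 ± 0.19.

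Of 7 tested colony-stimulating factor genes, 4 were lower in PM and 1 higher, against 25.7% and 18.9% of all genes (5 and 1 without NMG_3). Csf1r, the receptor on which macrophage survival depends, was abundant in both, at 1972, 2460, 1357 and 2821 CPM in PM and 15947, 10614, 12760 and 14092 CPM in NMG (-2.63 ± 0.17, adjusted p = 3.49e-11). The ligand Csf1 was at 17.6 ± 5.58 and 164 ± 35.2 CPM (-3.22 ± 0.27) and Csf3r, the G-CSF receptor, at 206 ± 66.6 and 579 ± 68.8 CPM (-1.49 ± 0.17). Csf2ra, the alpha chain of the GM-CSF receptor, was the higher one, at 298 ± 52.7 and 77.6 ± 8.71 CPM (1.94 ± 0.12). Csf2rb2 was not called at -0.90 ± 0.12 and was called at -1.04 without NMG_3.

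**Figure D3:**
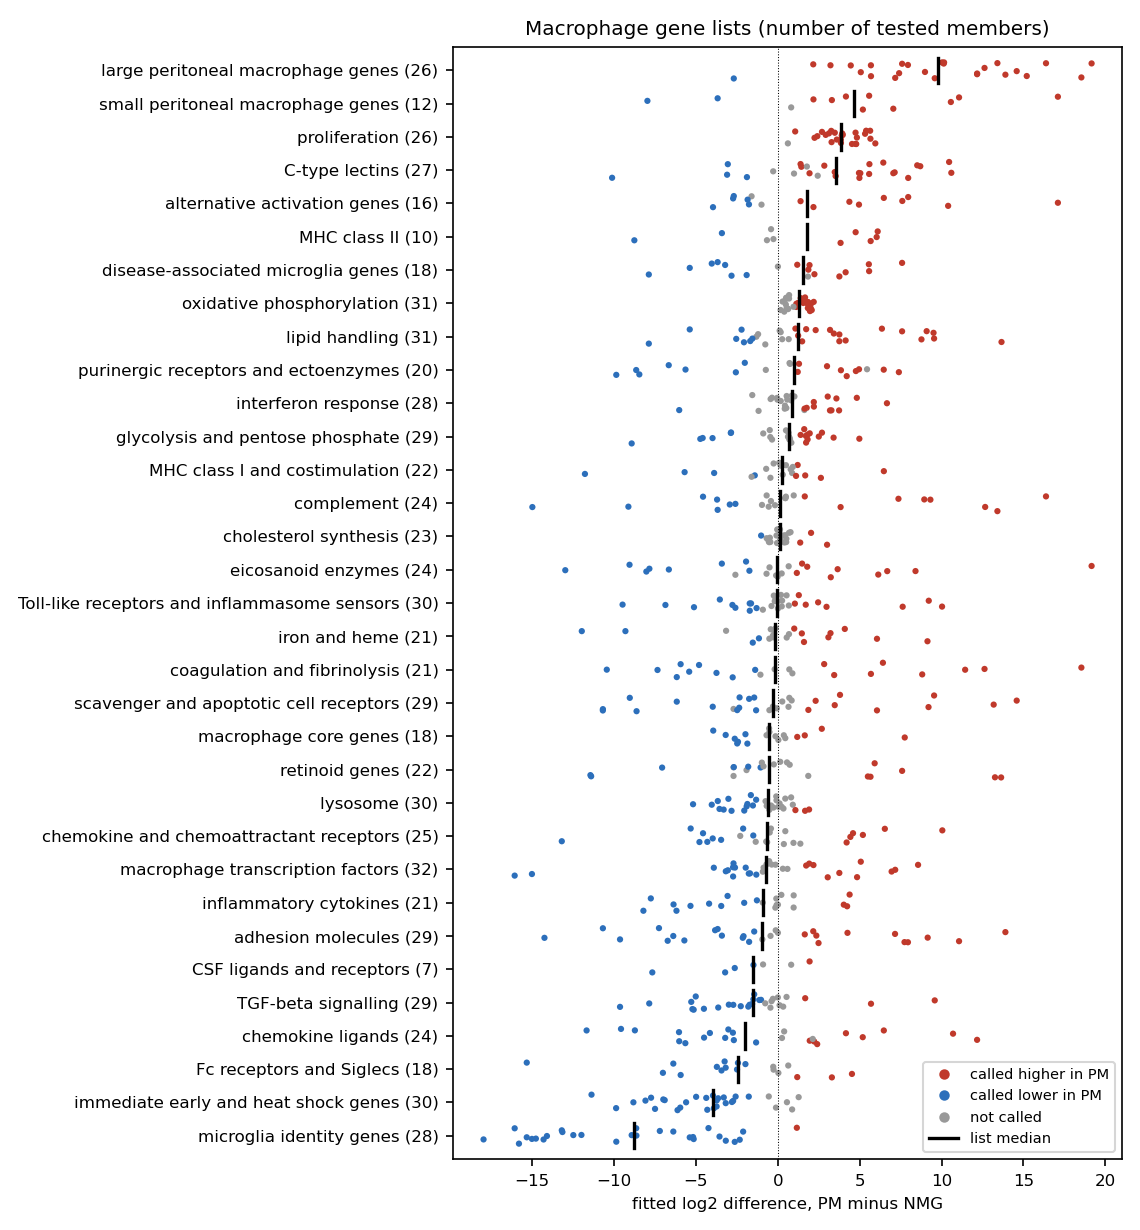
Fitted log2 difference, PM minus NMG (x axis), of each tested member of the 33 macrophage gene lists (y axis, ordered by median), with called genes in red or blue, others in grey and the list median as a bar. Large peritoneal macrophage genes have the highest median at 9.81 and microglia identity genes the lowest at -8.79. Fitted values of genes without counts on 1 side depend on the prior count.

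Among the called genes with the highest levels in PM were Lyz2, Fn1 and Apoe. Lyz2, the macrophage lysozyme, was at 38702, 44687, 58853 and 33338 CPM in PM and 171–232 CPM in NMG (7.75 ± 0.19, adjusted p = 8.61e-18). Fn1, the matrix glycoprotein fibronectin, was at 14209, 28808, 10041 and 24465 CPM in PM and 27.8, 4.38, 17.7 and 18.1 CPM in NMG (10.16 ± 0.92). Apoe, the lipid carrier apolipoprotein E, was at 10362, 15323, 17374 and 12686 CPM in PM and 775–1154 CPM in NMG (3.76 ± 0.16). All PM libraries exceeded all NMG libraries for these 3 genes, and Fn1 had the widest spread within PM. Emilin2, an elastic fibre glycoprotein, was at 4564 ± 1584 and 0.662 ± 0.547 CPM (12.76 ± 0.43, and 13.39 without NMG_1). Trf, the iron carrier transferrin, and Itgam, the integrin chain CD11b, were higher by 1.47 ± 0.13 and 1.65 ± 0.15, but 63.5% and 68.7% of their exon length is shared with other annotated genes, so both are uncertain.

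Among the called genes with the highest levels in microglia were Cst3 and Ctsd. Cst3, the protease inhibitor cystatin C, was at 18624 ± 1574 CPM in NMG and 1574 ± 28.2 CPM in PM (-3.56 ± 0.10). Ctsd, cathepsin D, was at 17440 ± 1819 and 4654 ± 68.1 CPM (-1.91 ± 0.11). Of the exon length of Ctsd, 34.4% is shared with other genes, so its counts are uncertain. Per kilobase of exon, Cst3 was the most abundant tested gene of microglia, at 14711 CPM per kb, and Ctsd was at 7418 CPM per kb.

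Ctsb was among the most abundant of the 4511 similar genes. Ctsb, cathepsin B, was at 4625, 4353, 4022 and 4684 CPM in PM and 4647, 3850, 4451 and 4191 CPM in NMG, with overlapping libraries and an interval of -0.14 to 0.23. The lysosomal membrane protein Laptm5 (-0.22 ± 0.13) and progranulin, Grn (-0.10 ± 0.20), overlapped too. The complement chains C1qb and C1qc were similar by their intervals, -0.79 to -0.33 and -0.91 to -0.46, yet every PM library was below every NMG library. C1qb was at 3902 ± 289 CPM in PM and 5746 ± 563 CPM in NMG. Ftl1, ferritin light chain, was higher within the same bound (0.68 ± 0.13), with 34.6% of its exon length shared. Psap, the precursor of the saposins, was at -0.41 ± 0.17 and Actb, beta-actin, at 0.27 ± 0.09. Of 18 macrophage core genes, 4 were higher in PM, 7 lower and 7 similar, against 18.9%, 25.7% and 32.3% of all genes (median -0.52). Adgre1, the F4/80 antigen, was at 3061 ± 455 and 476 ± 75.4 CPM (2.69 ± 0.13) and Tyrobp, the adaptor DAP12, was higher by 1.19 ± 0.12. Aif1, which encodes IBA1, was lower at 11.9 ± 8.70 and 185 ± 22.7 CPM (-3.95 ± 0.32, and -4.60 without PM_1). Sirpa, the receptor of the "do not eat me" ligand CD47, was lower, at -3.19 ± 0.13. Fcgr3, a low-affinity Fc receptor, did not differ beyond its spread at 1164 ± 148 and 1137 ± 118 CPM (0.03 ± 0.10).

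Of 24 eicosanoid enzymes, 9 were higher in PM and 8 lower, against 18.9% and 25.7% of all genes (median -0.06), with 7 lower without NMG_3. Beside Alox15, prostacyclin synthase Ptgis was at 363 ± 37.2 and 1.04 ± 0.976 CPM (8.41 ± 0.67, and 9.21 without NMG_4). Pla2g7, which inactivates platelet-activating factor, was higher by 6.14 ± 0.52 (7.02 without NMG_3). Ptges, a prostaglandin E synthase, was higher by 3.65 ± 0.76 (5.63 without NMG_3). The prostaglandin D synthase Hpgds was at 0.564 ± 0.213 CPM in PM and 310.3 ± 4.23 CPM in NMG (-9.06 ± 0.20), and Hpgd, which degrades prostaglandins, at 2.01 ± 0.884 and 466 ± 56.3 CPM (-7.85 ± 0.23). Ptgs2, the inducible cyclooxygenase, was at 13.5 ± 2.01 CPM in NMG and at 0 CPM in every PM library but PM_3 (-8.03 ± 0.78). Without PM_3 its bound was 359-fold. The second prostaglandin D synthase, Ptgds, had no counts in PM, and its bound of 1655-fold became 132-fold without NMG_3. Ptgs1, the constitutive cyclooxygenase, was not called at -0.69 ± 0.14, nor was the thromboxane synthase Tbxas1 at -0.51 ± 0.11.

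Of 21 tested coagulation and fibrinolysis genes, 8 were higher in PM and 9 lower, against 18.9% and 25.7% of all genes. The median was -0.20, 0.22 without NMG_3 and -1.22 without PM_3. F10, factor X, was at 526 ± 30.4 CPM in PM and 0.078 ± 0.079 CPM in NMG (12.63 ± 0.45), a ratio of 12743 (3528–105229) without NMG_1. F7, factor VII, was at 102 ± 14.7 CPM in PM with 2 counts in NMG, a ratio of 3261 (902–26930), and 4993 (896–197231) without NMG_5. F13a1, the fibrin-crosslinking factor XIII A chain, was higher by 8.82 ± 0.41 (9.79 without NMG_1). On the lower side stood F9, factor IX (-7.35 ± 0.64), Gas6, the ligand of TAM receptors (-6.18 ± 0.18), and Vwf, von Willebrand factor (-5.94 ± 1.06). The NMG level was higher by a ratio of 628 (173–5192) for F9 without PM_3 and of 1639 (294–64792) for Vwf without PM_2. Genes listed for endothelium and megakaryocytes were mostly lower in PM too, as given below, and which cells Vwf came from was not tested. Tfpi, the tissue factor pathway inhibitor, was lower, at -1.38 ± 0.16. Pros1, protein S, was not called at 0.70 ± 0.13.

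Complement tags targets for uptake. Of 24 complement genes tested, 8 were higher in PM, 7 lower and 6 similar, against 18.9%, 25.7% and 32.3% of all genes. The median was 0.14, and 9 were higher and 6 lower without NMG_3. C4b, complement component 4, was at 8673, 8116, 4009 and 10901 CPM in PM and 7.96, 4.69, 8.57 and 28.5 CPM in NMG (9.32 ± 0.59, and 10.09 without NMG_5). Cfp, properdin, which stabilises the alternative pathway convertase, was at 2863 ± 179 and 0.438 ± 0.162 CPM (12.67 ± 0.26). Fcna, the lectin pathway ficolin A, was at 1583 ± 189 and 0.139 ± 0.204 CPM (13.41 ± 0.59), a ratio of 38515 (10662–318029) without NMG_3. C5ar2, a second receptor of C5a, was lower, at 2.71 ± 0.215 and 64.6 ± 13.5 CPM (-4.57 ± 0.15). Cd59a, an inhibitor of the membrane attack complex, was called lower at -2.59 ± 0.96, but was not called at 0.34 without NMG_3, nor at -2.58, -2.47 and -2.39 without PM_1, PM_2 and PM_4. In edgeR's fit of the 8 libraries alone it was not called (-2.62, adjusted p = 0.115).

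Of 29 adhesion molecules, 11 were higher in PM and 14 lower, against 18.9% and 25.7% of all genes (median -0.95). Without NMG_3, 11 were higher and 15 lower. Beside Selp and Icam2, the integrin chain Itgb7 was at 882, 423, 159 and 868 CPM in PM and 0.396–1.48 CPM in NMG (9.15 ± 0.64). PM_3 was the lowest PM library for Itgb7, and the populations did not overlap. The junctional protein F11r was at 0.0473 ± 0.0381 CPM in PM and 1012 ± 98.0 CPM in NMG (-14.26 ± 0.25), and the vitronectin receptor chain Itgb5 at 1.96 ± 0.997 and 3237 ± 617 CPM (-10.69 ± 0.30). Vcam1 was lower, at -7.26 ± 0.61 (-8.28 without PM_1). Pecam1, which is also listed for endothelium, was lower, at -5.71 ± 0.36. The integrin Itga9 was not called at -0.95 ± 0.13 and was called at -1.08, -1, -1 and -1.04 without NMG_3, NMG_4, NMG_5 and PM_4.

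Immediate early genes, which are transcribed within minutes of a stimulus, were mostly lower in PM than in NMG. Of the heat shock genes listed with them, Hspa1a and Dnajb1 were lower, and Hspa1b, Hsph1 and Hsp90aa1 were not called. Of 30 tested genes of this joint list, 25 were lower in PM, 0 were higher and 5 were not called, against 25.7% of all genes called lower (median -3.94). By DESeq2 0 were higher too, and 1 was at an unadjusted p under 0.05. Without NMG_3 the counts were 25 lower and 1 higher, the latter being Hsph1. Without PM_2 they were 26 lower and 1 higher, again with Hsph1 (0.87 ± 0.30 with all libraries, 1.01 without NMG_3 and 1.07 without PM_2). The list summed to 2828, 3137, 2994 and 3748 CPM in PM_1 to PM_4 and 62152, 66280, 74835 and 69764 CPM in NMG_1, NMG_3, NMG_4 and NMG_5. Fos, an AP-1 subunit, was at 9.26, 10.8, 13.1 and 18.3 CPM in PM and 10575, 11493, 13726 and 12737 CPM in NMG (-9.88 ± 0.33, adjusted p = 1.56e-15, and -9.94 without NMG_3). Its partner Jun was at 46.5 ± 6.87 and 8442 ± 755 CPM (-7.50 ± 0.26). Egr1, a zinc finger factor, was at 14.9–41.3 CPM in PM and 6729–9458 CPM in NMG (-8.09 ± 0.40), and Zfp36, which destabilises cytokine mRNAs, at 118–180.1 and 5548–7793 CPM (-5.61 ± 0.26). Fosb and the phosphatase Dusp2 were lower, at -11.38 ± 0.62 and -8.83 ± 0.68 (-9.65 without PM_4). No library of either population was near the other for these 6 genes. In the other populations of the series Fos had 9115 ± 324 CPM among dura macrophages with high MHC class II, 8613 ± 864 CPM among those with low and 8422 ± 3493 CPM among choroid plexus macrophages. Tissue of origin and any difference in how cells were isolated cannot be told apart here.

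Cytokines carry inflammatory signals between cells. Of 21 inflammatory cytokine genes tested, 3 were higher in PM and 10 lower, against 18.9% and 25.7% of all genes. The median was -0.92, and 4 were higher and 10 lower without NMG_3. Tnf, tumour necrosis factor, was at 0.242, 1.28, 0.172 and 1.33 CPM in PM and 229, 210.1, 220.5 and 215 CPM in NMG (-8.21 ± 0.57). Il1b was lower, at -6.37 ± 0.57 (-7.55 without PM_4), and Il1a at -5.34 ± 0.43. Tnfaip3, the A20 inhibitor of NF-kappa-B, was at 14.2 ± 4.57 and 1041 ± 74.7 CPM (-6.19 ± 0.33). Of the higher members, Il10 and Tnfsf14 were under 10 CPM in both populations, and these 2 are named after their values were seen. Il18bp, which neutralises interleukin-18, was the other, at 47.8 ± 36.3 and 2.95 ± 2.31 CPM (4.03 ± 0.61, 4.67 without NMG_5 and 3.41 without PM_1). Mif was not called at 0.96 ± 0.19 and was called at 1.11, 1.01, 1.03 and 1.03 without NMG_3, NMG_4, PM_2 and PM_4.

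Of 24 chemokine ligands, 8 were higher in PM and 13 lower, against 18.9% and 25.7% of all genes (median -2.01). Without NMG_3, 8 were higher and 12 lower (median -0.70). Ccl4 and Ccl3, macrophage inflammatory chemokines, were at 1415–1800 and 841–1042 CPM in NMG and 0.214–0.984 and 0.967–1.66 CPM in PM (-11.68 ± 0.52 and -9.58 ± 0.41). Ccl12, a monocyte attractant, was lower, at -8.73 ± 0.40, and so was Cxcl10, an interferon-induced ligand of CXCR3, at -6.03 ± 0.57 (-6.65 without PM_1). Among the higher chemokines, Cxcl13, the B cell attractant of the serous cavities, was at 169 ± 81.9 CPM in PM with 2 counts in NMG, both in NMG_5, a ratio of 5548 (1536–45812) and a bound of 2831-fold without that library. Pf4, platelet factor 4, was at 1146 ± 515 and 0.682 ± 0.256 CPM (10.70 ± 0.40). Ccl6 was at 2771 ± 1341 and 155 ± 35.4 CPM (4.16 ± 0.26), and Ccl24, eotaxin-2, at 235 ± 85.8 and 2.62 ± 0.924 CPM (6.47 ± 0.32). Cxcl2 did not differ beyond its spread (0.25 ± 0.43).

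Of 25 chemoattractant receptors, 6 were higher in PM and 9 lower, against 18.9% and 25.7% of all genes (median -0.65). The formyl peptide receptor Fpr1 was at 38.8 ± 10.4 CPM in PM with 2 counts in NMG, a ratio of 1262 (349–10425), which was 1901 (341–75085) without NMG_1 and 1933 (347–76349.6) without NMG_5. Ccr1 was higher by 4.59 ± 0.17 and Ackr3, a scavenger of CXCL12, by 4.43 ± 0.48. Beside Cx3cr1, the lower ones included the oxysterol receptor Gpr183, at 17.3 ± 6.2 and 273 ± 41.8 CPM (-3.98 ± 0.24), and Ccrl2 (-4.79 ± 0.25). The complement anaphylatoxin receptors C3ar1 and C5ar1 were not called at -0.42 ± 0.12 and 0.46 ± 0.15.

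C-type lectins were higher in PM as a list. Of 27 tested, 19 were higher and 4 lower, against 18.9% and 25.7% of all genes (median 3.53, and 18 and 4 without NMG_3). Clec4e and Clec4d, receptors for mycobacterial cord factor, were at 227 ± 44.8 and 80.8 ± 24.0 CPM in PM. Clec4e had 0.157 ± 0.0665 CPM in NMG (10.46 ± 0.49), and Clec4d had 3 counts there, a ratio of 1770 (605–8583) that was 3977 (714–157101) without NMG_3. Cd209b and Clec10a, lectins of the DC-SIGN and galactose-binding families, were at 19.0 ± 3.87 and 28.5 ± 2.63 CPM in PM. In microglia both were counted in NMG_3 alone, so that the ratio of 415 (142–2012) for Cd209b and the difference of 7.96 ± 0.39 for Clec10a became bounds of 311-fold and 461-fold without it. The lower lectins included Clec4a2 (-3.06 ± 0.14) and Clec5a (-1.89 ± 0.24). Cd302 was not called at 0.99 ± 0.13 and was called at 1.01, 1.04 and 1.08 without NMG_1, PM_2 and PM_4. Clec4a3 was not called at -0.28 ± 0.12.

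Of 29 receptors for scavenging and for dying cells, 9 were higher in PM and 12 lower, against 18.9% and 25.7% of all genes (median -0.30). Without NMG_3, 10 were higher and 11 lower. Beside Timd4, Marco, a class A scavenger receptor, was at 486 ± 98.6 CPM in PM with 3 counts in NMG, a ratio of 10438 (3571–50614) that was 23576 (4231–931202) without NMG_1. Cd36, a receptor of oxidised lipids and fatty acids, was at 878 ± 174 and 1.18 ± 0.815 CPM (9.55 ± 0.34), and Msr1, scavenger receptor A, at 1871 ± 197 and 3.17 ± 1.02 CPM (9.21 ± 0.21). Microglia had more of Havcr2, the receptor TIM-3, at 297 ± 23.2 CPM against 0.166 ± 0.304 CPM in PM (-10.69 ± 0.46, and a ratio of 23639.7 (4242–933765) without PM_1), and of Mertk, a TAM receptor for dying cells, at 677 ± 89.9 against 121 ± 19.7 CPM (-2.48 ± 0.12). Cd68, an endolysosomal glycoprotein, was not called at -0.52 ± 0.08. Of 18 Fc receptors and Siglecs, 11 were lower in PM and 3 higher, against 25.7% and 18.9% of all genes (median -2.46). Fcrls, an Fc receptor-like protein of microglia, was at 39.4 ± 20.1 and 3295 ± 370.5 CPM (-6.39 ± 0.35). Fcrl1 and Siglecf were lower, at -7.02 ± 0.66 (-8.62 without PM_4) and -5.94 ± 0.39. Siglec1, the sialoadhesin CD169, was at 135, 31.2, 10.8 and 191 CPM in PM and 1.25, 1.54, 3.01 and 10.2 CPM in NMG. Its groups came close, PM_3 to NMG_5 (4.53 ± 0.80, 5.51 without NMG_5 and 3.86 without PM_4). Fcgr4 was higher in PM by 3.30 ± 0.48 (2.64 without PM_1). Fcer1g, the shared signalling chain, was not called at -0.28 ± 0.09.

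Of 20 purinergic genes tested, 9 were higher in PM and 7 lower, against 18.9% and 25.7% of all genes (median 0.98). P2ry13, another ADP receptor, was lower with P2ry12, at 2.36 ± 0.666 and 2221 ± 322 CPM (-9.87 ± 0.20), as was the UDP receptor P2ry6, at 6.70 ± 0.71 and 334 ± 57.4 CPM (-5.64 ± 0.15). P2ry1, P2ry14 and P2ry2 were higher in PM by 6.47 ± 0.53, 4.77 ± 0.40 (5.43 without NMG_3) and 4.21 ± 0.40. Nt5e, the ectonucleotidase CD73 that makes adenosine, was at 280.3, 264, 252 and 321 CPM in PM and in microglia was counted in NMG_3 alone, at 6.61 CPM. Its difference of 7.39 ± 1.06 became a bound of 4471-fold without that library. Among Toll-like receptors and inflammasome sensors, 8 of 30 were higher in PM, 10 lower and 9 similar, against 18.9%, 25.7% and 32.3% of all genes. The median was -0.07, and 7 were higher and 11 lower without NMG_3. Naip1, a sensor of the bacterial secretion needle, and its partner Nlrc4 were at 103 ± 9.93 and 13.3 ± 2.20 CPM in PM and 0.0941 ± 0.0392 and 0.0624 ± 0.0887 CPM in NMG (10.03 ± 0.44 and 7.63 ± 0.32). For Nlrc4 the ratio was 651 (117–25711) without NMG_1. Lbp, which hands lipopolysaccharide to CD14, was at 208, 145, 201 and 191 CPM in PM and 1.88, 87.0, 3.18 and 2.64 CPM in NMG (2.97 ± 0.88, and 6.14 without NMG_3). In edgeR's fit of the 8 libraries alone Lbp was not called (2.95, adjusted p = 0.0804). Tlr12 and Tlr5 were lower, at -9.49 ± 0.46 (a ratio of 2197 (751–10658) without PM_1) and -5.12 ± 0.32 (-5.79 without PM_4), Nlrp3 at -3.54 ± 0.32 and Tlr3 at -2.78 ± 0.28. Cd14 and Tlr13 did not differ beyond their spread (-0.14 ± 0.16 and 0.24 ± 0.15).

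Of 16 genes of alternative activation, the state induced by interleukin-4, 9 were higher in PM and 5 lower, against 18.9% and 25.7% of all genes (median 1.78). Arg1, arginase 1, was at 993, 465, 1551 and 562 CPM in PM and 1.63, 0.123, 0.232 and 0.661 CPM in NMG (10.40 ± 0.82, and 11.34 without NMG_1). The interleukin-13 receptor chain Il13ra1 was lower, at 92.6 ± 30.5 and 333 ± 52.8 CPM (-1.85 ± 0.16). Klf4, a factor of both this state and the immediate early response, was lower, at -2.73 ± 0.39, and Egr2 at -3.96 ± 0.43.

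Of 31 lipid handling genes, 17 were higher in PM and 7 lower, against 18.9% and 25.7% of all genes (median 1.24, and 19 higher without NMG_3 with a median of 2.19). Fabp4, a fatty acid chaperone, was at 274 ± 33.9 CPM in PM with 1 count in NMG, in NMG_3, a ratio of 17792 (3193–702754) and a bound of 4442-fold without that library. Fabp7 was higher by 8.77 ± 0.46. Lower members included Trem2, given above, and genes of sterol handling. Abcg1, a cholesterol efflux pump, was at 36.1 ± 7.85 and 116 ± 9.38 CPM (-1.69 ± 0.17), and Mylip, a ubiquitin ligase of sterol control, at 39.4 ± 17.6 and 183 ± 9.05 CPM (-2.22 ± 0.21). Scd2, a fatty acid desaturase, was lower, at -2.54 ± 0.28. Cholesterol synthesis genes were mostly not called. Of 23, 3 were higher and 1 lower, below the background in both directions, and 12 were similar (median 0.13, and 0.38 without NMG_3). The synthesis enzymes Idi1 and Mvd were higher by 2.03 ± 0.25 and 1.37 ± 0.23. Dhcr7 was lower, at -1.02 ± 0.17 and not called without PM_1 (-0.89), PM_2 (-0.97) or PM_3 (-0.95).

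Iron and heme genes had 8 of 21 members higher in PM, 4 lower and 7 similar, against 18.9%, 25.7% and 32.3% of all genes. The median was -0.14, and 0.49 without NMG_5. Hp, the hemoglobin carrier haptoglobin, was at 143 ± 7.13 and 0.247 ± 0.264 CPM (9.14 ± 1.05, and 9.86 without NMG_3). Its receptor Cd163 was at 29.3 ± 3.73 and 0.434 ± 0.511 CPM (6.06 ± 0.32, and 7.24 without NMG_1). Slc40a1, the iron exporter ferroportin, was the reverse, at 0.0585 ± 0.0546 CPM in PM and 246 ± 43.3 CPM in NMG (-11.98 ± 0.42). Without PM_4, 3 PM counts were left for Slc40a1 and the ratio was 6999 (2394–33942). The transferrin receptor Tfrc was lower, at -1.15 ± 0.20, and ferritin heavy chain, Fth1, was not called at -0.29 ± 0.11.

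Of 30 lysosomal genes, 13 were lower in PM, 3 higher and 11 similar, against 25.7%, 18.9% and 32.3% of all genes (median -0.60). Without NMG_3, 12 of these 30 were lower. Beside Cst3 and Ctsd, the lower ones included the proteases Lgmn, at 435 ± 57.9 and 4316 ± 497 CPM (-3.31 ± 0.12), and Ctsf, at 47.7 ± 12.6 and 387 ± 38.3 CPM (-3.02 ± 0.16). Glb1, the lysosomal beta-galactosidase, was higher by 1.66 ± 0.12. Lipa, the acid lipase, was higher by 1.07 ± 0.11 and not called without PM_4 (0.98). The 30 genes summed to 24558–28485 CPM in PM and 72731–89072 CPM in NMG.

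Of 31 nuclear oxidative phosphorylation genes, 19 were higher, 0 lower (also 0 by DESeq2 or at an unadjusted p under 0.05) and 11 similar, against 18.9% of all genes called higher (median 1.27, and 20 higher without NMG_3 with a median of 1.64). The differences were small beside those of the identity genes. Ndufa1, a subunit of complex I, was at 67.4 ± 13.5 and 14.7 ± 10 CPM (2.19 ± 0.29), Cox7c of complex IV at 51.5 ± 18.5 and 12.2 ± 4.02 CPM (2.07 ± 0.23), and Uqcrb of complex III at 137 ± 34.8 and 34.0 ± 13.4 CPM (2.01 ± 0.21). The ATP synthase subunits Atp5b and Atp5a1 were not called at 0.69 ± 0.14 and 0.68 ± 0.10. Of 29 glycolysis and pentose phosphate genes, 11 were higher, 6 lower and 6 similar, against 18.9%, 25.7% and 32.3% of all genes. The median was 0.70, and 12 were higher and 6 lower without NMG_3. Ldha, the lactate dehydrogenase chain that favours lactate, was at 1425, 1136, 1789 and 1283 CPM in PM and 236, 281, 247 and 230.4 CPM in NMG (2.50 ± 0.13). The other chain, Ldhb, was the reverse at 20.6 ± 3.79 and 498 ± 84.2 CPM (-4.59 ± 0.22). Slc2a6 was higher by 4.98 ± 0.26 and the fructose transporter Slc2a5 lower, at -8.93 ± 0.52. Pfkp was higher by 2.70 ± 0.70 (4.94 without NMG_3), and not called in edgeR's fit of the 8 libraries alone (2.68, adjusted p = 0.0578). The regulators Hk2 and Pfkfb3 were lower, at -2.87 ± 0.22 and -3.99 ± 0.20, and Aldoa and Pgam1 were not called at 0.62 ± 0.13 and 0.67 ± 0.12.

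Genes of the cell cycle were higher in PM almost throughout the list, with 25 of 26 called higher, against 18.9% of all genes, and 0 lower, also by DESeq2 or at an unadjusted p under 0.05 (median 3.88, and 24 without NMG_3). Their summed level was 2119, 1223, 2129 and 1458 CPM in PM_1 to PM_4 and 260.1–297 CPM in NMG, so that all PM libraries were above all NMG libraries. Rrm2, a subunit of ribonucleotide reductase, was at 111, 58.8, 103 and 54.1 CPM in PM and 0.627, 0.864, 1.16 and 2.64 CPM in NMG (5.96 ± 0.46, adjusted p = 1.7e-09). Top2a, topoisomerase II alpha, was at 159, 66.1, 97.0 and 80.9 CPM in PM and 1.42–3.04 CPM in NMG (5.39 ± 0.45). Birc5 and Ccna2, of mitosis and its entry, were higher by 5.66 ± 0.54 and 5.64 ± 0.50. Pcna was the member not called, at 107 ± 35.7 and 69.7 ± 12.8 CPM (0.61 ± 0.18). The share of cells in cycle was not measured.

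MHC class II genes varied widely among the PM libraries. Of 10 tested, 5 were higher and 2 lower, against 18.9% and 25.7% of all genes (median 1.78, with the same counts without NMG_3). H2-Aa was at 659, 240.1, 63.4 and 431 CPM in PM_1 to PM_4 and 6.27, 9.14, 1.79 and 3.11 CPM in NMG_1, NMG_3, NMG_4 and NMG_5 (6.10 ± 0.61, adjusted p = 1.01e-07). PM_1 was highest and PM_3 lowest, and H2-Ab1 (1008, 354, 111 and 707 CPM) and H2-Eb1 (366, 178, 40.4 and 297 CPM) followed the same order. Even PM_3 lay above all microglia for these 3 chains. Ciita, the transactivator of the class II genes, was at 20.9, 4.96, 1.45 and 14.9 CPM in PM and 0–0.502 CPM in NMG (6.04 ± 0.94, and 5.45 without PM_1), with a ratio of 253 (69.8–2090.2) without NMG_1. H2-Oa and H2-Ob, which restrain peptide loading, were lower, at -8.77 ± 0.39 and -3.42 ± 0.20. The loading chaperone chains H2-DMa and H2-DMb1 were not called at -0.67 ± 0.22 and -0.41 ± 0.26. Of 11 dendritic cell markers, which a mixed gate could bring in, 1 was higher in PM (Cd209a) and 7 lower, against 18.9% and 25.7% of all genes. The lower ones include Siglech, which is also listed for microglia, so these calls do not measure dendritic cells in PM. The markers had a summed level of 43.8, 74.6, 83.8 and 105 CPM in PM_1 to PM_4. B cell markers summed to 20.6, 5.32, 12.4 and 26.1 CPM there. Their part in the class II levels was not tested. Of 22 class I and costimulation genes, 5 were higher and 4 lower, against 18.9% and 25.7% of all genes (median 0.25). Leaving out each library in turn gave 3–7 higher, with the fewest without PM_1 and the most without PM_3 or NMG_5, and 3–5 lower. Cd40, a costimulatory receptor, was at 58.4 ± 9.41 and 0.649 ± 0.238 CPM (6.48 ± 0.21), and Cd86 was lower, at -1.41 ± 0.15. H2-D1 was higher by 2.63 ± 0.27, while B2m was not called at 0.50 ± 0.27. Psmb9 was called at 1.21 ± 0.31 and not without PM_1 (0.71).

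Interferon response genes depended on single libraries. Of 28, 11 were higher in PM and 1 lower, against 18.9% and 25.7% of all genes (median 0.84). The list summed to 6924, 2560, 2400 and 6668 CPM in PM_1 to PM_4 and 1785, 1413, 1832 and 4944 CPM in NMG_1, NMG_3, NMG_4 and NMG_5, so the populations overlapped through NMG_5. Without NMG_5, 20 were higher and 1 lower. Without NMG_3 the counts were 9 and 1, without PM_1 9 and 2, and without both NMG_3 and NMG_5 18 and 1. In the fit of the 8 libraries alone 7 were higher. Ifitm3, an antiviral membrane protein, was at 1327, 767, 790.3 and 1452 CPM in PM and 15.6, 17.5, 15.7 and 104 CPM in NMG (4.82 ± 0.60, and 6.02 without NMG_5). Oas2, which makes the activator of RNase L, was at 67.1, 28.4, 37.7 and 71.9 CPM in PM and 0.439, 0.370, 0.868 and 15.8 CPM in NMG (3.58 ± 0.79, and 6.45 without NMG_5). Oas3 was higher by 6.67 ± 0.81 (6.01 without PM_4), and Zbp1, a sensor of Z-form nucleic acid, by 3.74 ± 0.89 (5.65 without NMG_5 and 3.05 without PM_1). Ly6e was not called at -0.36 ± 0.39. The 1 lower gene was Cxcl10, given above with the chemokines.

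**Figure D4:**
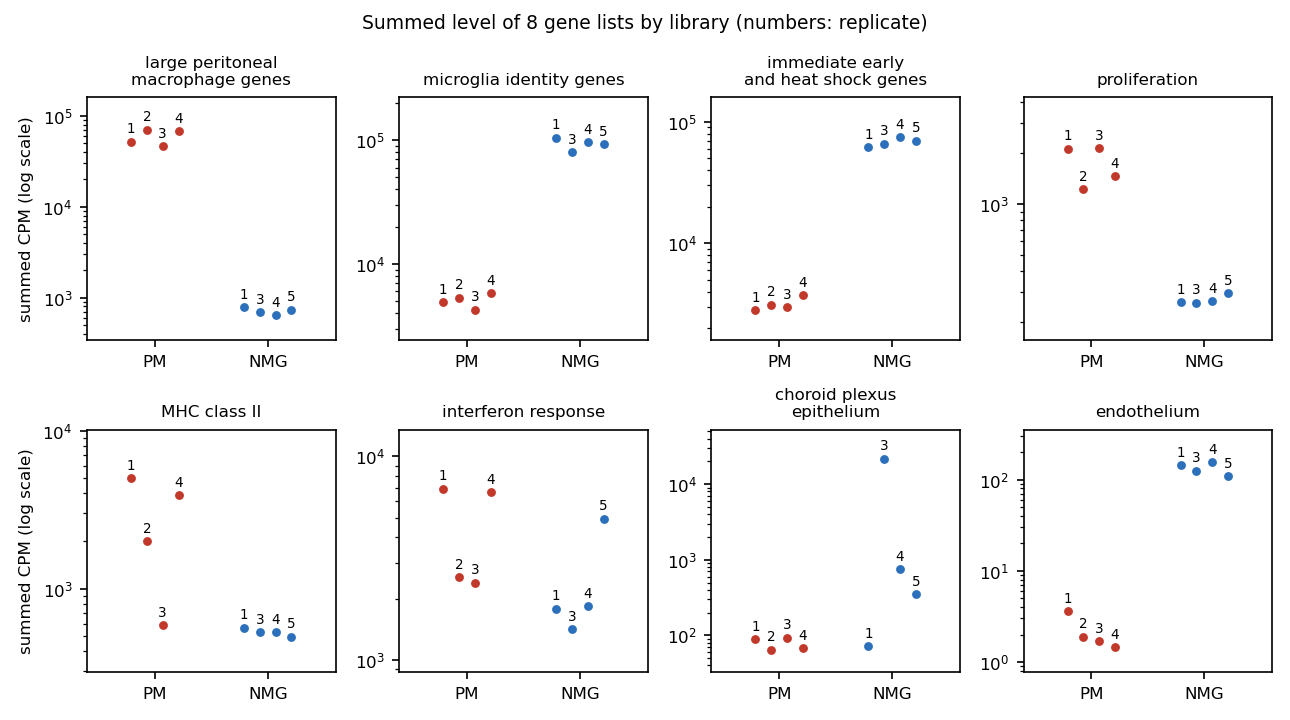
Summed CPM of the genes of 8 lists in each library on log scales, PM in red and NMG in blue, with the replicate number at each point. The immediate early list is at 2828–3748 CPM in PM and 62152–74835 CPM in NMG, NMG_3 stands at 21834 CPM for choroid plexus epithelium, and NMG_5 and PM_3 stand apart for the interferon and MHC class II lists.

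Transcripts of other cell types were measured in all libraries, each list by its summed level and by its calls. The choroid plexus epithelium list had 15 of 16 members lower in PM and 1 higher (median -11.82), and 14 and 1 without NMG_3 (median -7.83). In a fit of the 8 libraries alone, 7 of these genes were called lower, and Kl, Kcne2, Sostdc1, 1500015O10Rik, Car12 and Calml4 were not called. Kl, Clic6, Kcne2, Sostdc1, Otx2 and 1500015O10Rik had no counts in PM, with bounds of 5135-, 2579-, 1399-, 1618-, 409- and 1891-fold that became 324-, 256-, 88-, 97-, 38- and 151-fold without NMG_3. Igfbp2 had 3 counts in PM, a ratio of 7879 (2695–38208), which was 317 (108–1543) without NMG_3 and a bound of 6188-fold without PM_4. Slc4a5 also had 3, a ratio of 950.4 (325–4613), which was 87.7 (29.3–431) without NMG_3 and 2131 (382–84235) without PM_2. Folr1 was lower, at -9.09 ± 1.66 (-5.64 without NMG_3 and -9.75 without PM_1), and Kcnj13 at -10.42 ± 1.91 (-6.71 without NMG_3, and a ratio of 2893 (800.4–23896) without PM_2). Prlr was lower, at -8.46 ± 1.54 (-5.83 without NMG_3), with a bound of 407-fold without PM_2, and Aqp1 at -8.50 ± 1.85 (-4.94 without NMG_3) with a bound of 585-fold without PM_3. Car12 was lower, at -3.63 ± 1.27 and not called at -0.11 without NMG_3 or at -3.35 without PM_3. Calml4 went the other way. It was at 84.5, 60.0, 91.2 and 63.0 CPM in PM and 0.188, 28.8, 1.10 and 0.463 CPM in NMG (3.29 ± 0.92, and 6.92 without NMG_3), and it made up most of the summed level of this list in PM.

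**Figure D5:**
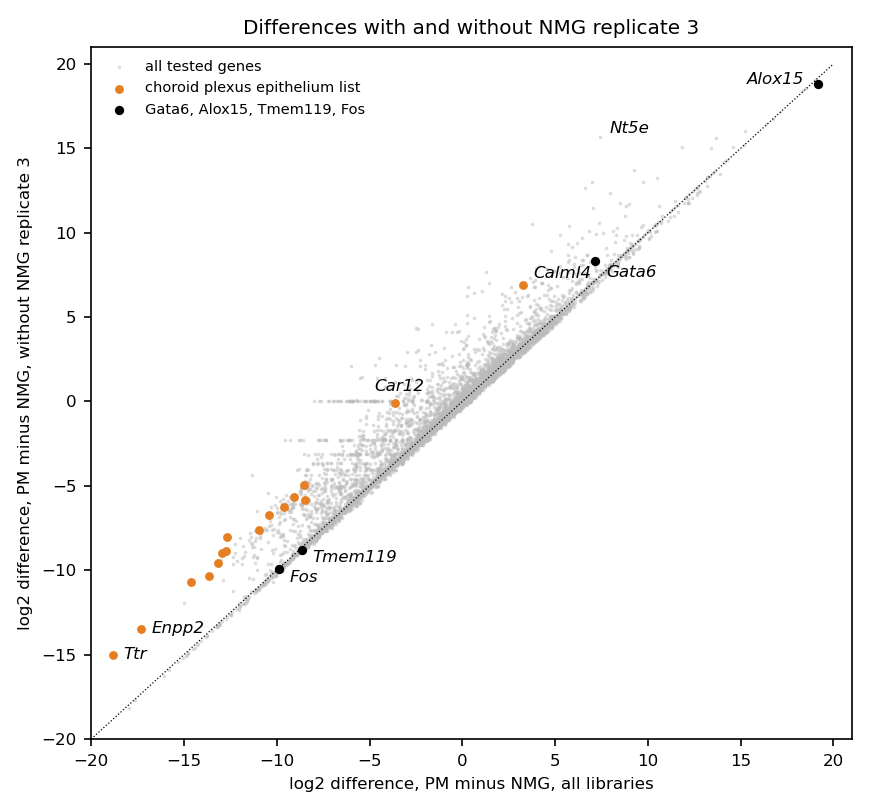
Log2 difference, PM minus NMG, of each tested gene with all libraries (x axis) and without NMG_3 (y axis), with the choroid plexus epithelium list in orange and the 4 marker genes in black. Ttr moves from -18.80 to -15.02, Calml4 from 3.29 to 6.92 and Nt5e from 7.39 to 15.64 on the fitted scale, while Tmem119 and Fos stay on the line.

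Markers of vessels and brain cells varied by list. All 10 endothelial genes were lower in PM, with summed levels of 1.46–3.59 CPM in PM and 109–155 CPM in NMG, and 5 of the 10 were at 0 in every PM library. Cldn5, a tight junction protein, was at 23.2 ± 10.9 CPM in NMG and at least 849-fold lower, and Kdr, a VEGF receptor, at 18 ± 5.11 CPM and at least 655-fold lower. Astrocyte genes had 8 of 10 lower (6 and 1 without NMG_3, and 2 and 0 in the fit of the 8 libraries alone), with sums of 18.4–31.3 CPM in PM and 121–194 CPM in NMG. Slc1a3, a glutamate transporter, was at 123 ± 22.5 CPM in NMG and made most of that sum. Fibroblast genes had 8 of 9 lower (5 without NMG_3), with 20.6, 139, 26.9 and 8.13 CPM in NMG_1, NMG_3, NMG_4 and NMG_5 and at most 1.75 CPM in PM. Oligodendrocyte genes had 7 of 10 lower (5 without NMG_3), with sums of 189.6–301 and 189–229 CPM that overlapped. Neuronal genes had 4 of 6 lower and 1 higher, with 3.38–6.51 CPM in PM and 5.08–7.18 CPM in NMG. In the fit of the 8 libraries alone 3 fibroblast, 4 oligodendrocyte and 2 neuronal genes were lower.

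In PM the summed markers of other blood and cavity cells ran from near the floor (erythroid cells) to 145 CPM (mast cells). Neutrophil genes summed to 2.49–3.86 CPM, T and NK cell genes to 0.552–1.63 CPM and erythroid genes to 0.0429–0.345 CPM, with 4 of 9, 2 of 9 and 6 of 8 at 0 in every PM library. In NMG these lists summed to 1.23–2.25, 0.679–0.868 and 0–1.17 CPM. Of their tested genes, 1 of 2 was higher (S100a8), 1 of 1 lower (Cd4) and 0 of 1 called. S100a8 and Cd4 are named here after their values were seen. Mast cell genes summed to 112–145 CPM in PM, of which Hdc, the histamine-making enzyme, was 122 ± 13.1 CPM (6.45 ± 0.71, and 8.39 without NMG_3), while 3 of the 10 listed genes were at 0. Of 5 tested, 3 were higher and 2 lower, and leaving out each library in turn gave 1–4 and 1–2, with the fewest higher without PM_4. Without PM_4, Cma1 and Tpsb2 were not called. Cpa3 and Mcpt4 were not tested and were counted in PM_4 alone, with 32 and 10 counts. Cma1, Tpsb2, Cpa3 and Mcpt4 are named here after their values were seen. In NMG the mast cell genes summed to 3.11–12.1 CPM. B cell genes had 4 of 6 higher and 2 lower, with 5.32–26.1 CPM in PM and 31.4–45.6 CPM in NMG, the latter mainly Cd79b (36.2 ± 6.17 CPM). Mesothelial genes, of the lining of the cavity, summed to at most 0.643 CPM in PM with 6 of 9 at 0, and 94.0–289 CPM in NMG, where Upk1b, which is also listed for microglia, was 98.9 ± 6.74 CPM. Of 6 tested, 5 were lower (4 without NMG_3). Megakaryocyte genes had 4 of 5 lower (3–5 with each library left out), at 0.214–1.24 and 32.8–70.4 CPM. Eosinophil genes had 1 of 3 lower, with 2 lower without NMG_3 or PM_2, at 1.59–2.33 and 41.2–59.8 CPM, almost all of it Siglecf. Dendritic cell genes had 7 of 11 lower (5–8 with each library left out) and 1 higher (1–2), at 1818–2168 CPM in NMG, where Siglech was 1378 ± 114 CPM. In the fit of the 8 libraries alone 3 mesothelial and 2 megakaryocyte genes were lower, and 1 mast cell gene was higher and 1 lower.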

How the data were processed

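RNA was sequenced from 4 peritoneal macrophage (PM) and 4 microglia (NMG) samples, within a series of 20. The deposited files hold whole-number counts per gene symbol. Per the submitters' processing notes, the build was mm10 and the tools included TopHat2 2.1.0, and Trimmomatic 0.38, SAMtools 0.1.18 and FastQC 0.11.4 are also named. Which program, annotation and strand option made the counts is not given in the sources used here, so a gene and an overlapping partner cannot be told apart. Counts in 24421 symbols were used, and footer lines that name no gene were left out of library sizes. Reads in no feature were 5.94–6.97% in PM and 12–13.1% in NMG, and ambiguous reads 1.26–1.51% and 0.836–0.926%.

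Genes were filtered with filterByExpr and scaled by TMM over all 20 libraries. edgeR 4.0.16 (R 4.3.3) fitted all 20 libraries, and PM was tested against NMG by its quasi-likelihood test, two-sided, with Benjamini-Hochberg adjustment over 13960 genes. The script was tested on simulated data. A floor of 3 counts was 0.103–0.129 CPM in a PM library and 0.174–0.198 CPM in an NMG library. Counting intervals are 95% and cover counting error only, since reads carry no molecular identifiers. Exon lengths and overlaps come from GENCODE M21 (GRCm38), and promoters from RefSeq. Alternatives were DESeq2 1.42.0, other scalings and filters, thinning, a test against 2-fold, a replicate block and leaving out each library.

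The members and the 48 gene lists were chosen with earlier results of these data known. Genes named are the 4 markers, the 12 largest called differences in each direction at 20 CPM or more with libraries that do not overlap, the 8 most abundant called in each direction and the 8 most abundant similar genes, passing over clones, gene models, mitochondrial genes, ribosomal proteins and pseudogenes. Each list adds up to 4 called members in each direction at 10 CPM or more and up to 2 that were not called, and the choroid plexus epithelium list adds all members at 10 CPM or more in any library. Not all of these are printed, and some are not reported here.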

Additional observations from a re-analysis of the deposited data

Results flagged for a closer look

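In 86 of 590 checked groups of 4 libraries, over the named genes and the list sums, 1 library stood so far from the other 3 that its gap, as a share of the whole range, was above the 95% critical value of Dixon's test. The rate of 1 in 20 behind that value holds for independent, normally distributed values. It does not hold for genes counted in 1 library only, where the gap is always the whole range. The choroid plexus epithelium genes were also chosen at 10 CPM or more in any library, NMG_3 included. The number flagged was therefore not compared with chance. NMG_3 was the library apart in 48 of the 86 groups, and no other library in more than 7.

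NMG_3 was above the other NMG libraries for 1500015O10Rik (196 CPM), Aqp1 (82.3 CPM), Atp5a1 (553 CPM), Atp5b (719.6 CPM), Bhlhe40 (28.8 CPM), Calml4 (28.8 CPM), Car12 (153 CPM), Cd209a (0.432 CPM) and Cd209b (0.185 CPM). The same held for Cd59a (44.5 CPM), Clec10a (0.432 CPM), Clic6 (263 CPM), Clu (669.8 CPM), Enpp2 (9054 CPM), Fabp4 (0.0617 CPM), Folr1 (178 CPM), Gpnmb (3.58 CPM) and Hdc (4.51 CPM). The same held for Idi1 (14.4 CPM), Igfbp2 (840.3 CPM), Il10 (0.0617 CPM), Kcne2 (147 CPM), Kcnj13 (268 CPM), Kl (538 CPM), Lbp (87 CPM), Ldhb (624 CPM) and Ndufa1 (29.6 CPM). The same held for Nt5e (6.61 CPM), Otx2 (41.9 CPM), Pfkp (57 CPM), Prlr (52.8 CPM), Ptgds (171 CPM), Ptges (8.21 CPM), Rarb (0.864 CPM), Slc4a5 (97.3 CPM) and Sostdc1 (169.9 CPM). The same held for Stra6 (59.1 CPM), Tgfb2 (20.2 CPM), Tgfbr3 (30.7 CPM) and Ttr (9725 CPM). In NMG_3 the summed level of the choroid plexus epithelium list was 21834 CPM, against 72.4–754 CPM in the others. In NMG_3 the summed level of the fibroblasts list was 139 CPM, against 8.13–26.9 CPM in the others. In NMG_3 the summed level of the mesothelium list was 289 CPM, against 94–119.8 CPM in the others. In NMG_3 the summed level of the erythroid cells list was 1.17 CPM, against 0–0.188 CPM in the others. NMG_3 was below the other NMG libraries for C1qb (4910 CPM), C1qc (4573 CPM), F11r (866 CPM) and H2-Oa (31.9 CPM).

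NMG_1 was above the other NMG libraries for Adamts1 (1249 CPM), Cd163 (1.19 CPM), F13a1 (1.88 CPM), Il1b (26.5 CPM), Pf4 (1.07 CPM) and Tfrc (33 CPM). NMG_1 was below the other NMG libraries for Egr2 (58.1 CPM).

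NMG_4 was above the other NMG libraries for Alox15 (0.0579 CPM) and Ccl24 (3.99 CPM). NMG_4 was below the other NMG libraries for Clec4e (0.0579 CPM) and Nfe2 (0.174 CPM).

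NMG_5 was above the other NMG libraries for C4b (28.5 CPM), Cxcl13 (0.132 CPM), Ifitm3 (104 CPM), Oas2 (15.8 CPM) and Zbp1 (25.3 CPM). In NMG_5 the summed level of the interferon response list was 4944 CPM, against 1413–1832 CPM in the others. In NMG_5 the summed level of the proliferation list was 297 CPM, against 260.1–266 CPM in the others.

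PM_1 was above the other PM libraries for Aif1 (24.9 CPM), Fabp7 (166 CPM) and Havcr2 (0.622 CPM).

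PM_2 was above the other PM libraries for Cd4 (0.255 CPM), Hal (266 CPM), Prlr (0.146 CPM) and Vwf (1.24 CPM).

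PM_3 was above the other PM libraries for Aqp1 (0.207 CPM), Ccl6 (4761 CPM), Enpp2 (0.0345 CPM), F9 (0.276 CPM) and Ptgs2 (0.172 CPM). In PM_3 the summed level of the small peritoneal macrophage genes list was 5808 CPM, against 3477–3684 CPM in the others. Of that sum, Ccl6 made 4761 CPM in PM_3, against 1839–2318 CPM in the others, while Ccr2 of the same list was lowest in PM_3. In PM_3 the summed level of the chemokine ligands list was 8321 CPM, against 3834–4401 CPM in the others.

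PM_4 was above the other PM libraries for Igfbp2 (0.129 CPM), P2ry6 (7.76 CPM), Rarb (72.8 CPM) and Tlr5 (1.54 CPM). In PM_4 the summed level of the mesothelium list was 0.643 CPM, against 0–0.109 CPM in the others. PM_4 was below the other PM libraries for Cst3 (1532 CPM).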

How the results depend on the processing

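The counts of genes higher, lower and similar (2640, 3589 and 4511) kept within 1.5 times under all settings but 1. With a filter of 10 CPM in 4 libraries, 2011 genes were lower, since fewer genes were tested, and 1877 were higher. Leaving out each library in turn gave 2524–2740 higher, 3358–3716 lower and 4280–4561 similar. A fit of the 8 libraries alone gave 2501 higher and 2722 lower, DESeq2 gave 2554 and 3670, and a test against 2-fold gave 2037 and 2884, with no count of similar genes. Without both NMG_3 and NMG_5, a setting chosen after seeing the data, the counts were 2653 and 3302.

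With the replicate number as a block, 2603 genes were higher, 3442 lower and 4301 similar, and 21 interferon response genes were higher, against 11 without it. Residuals of same-numbered libraries correlated at -0.036, 0.077 and -0.080 for numbers 1, 3 and 4, so the numbers were not taken as pairs.

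Cd59a turned from -2.59 to 0.34 without NMG_3, in a range of -3.02 to 0.34 over the libraries left out in turn, and to 0.17 without both NMG_3 and NMG_5, and the cause was not tested. Of the 263 genes named, calls were lost for 10 in the fit of the 8 libraries alone, for 11 with the test against 2-fold and for 3 with the replicate block (Car12, Dhcr7 and Tgfbr3). With DESeq2 none was lost, but it gave no adjusted p for Igfbp2, Lbp, Nt5e and Pfkp. Depth limits the genes with no counts on 1 side, for which only bounds are given.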
